A study of Mus musculus with 6 samples.

Results

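The cytosolic ribosomal protein genes encode the proteins of the ribosome, and their mRNA levels are described here in KP1, a mouse small cell lung cancer cell line, with and without active Notch1. Members were the genes whose symbol in the platform annotation is Rpl or Rps followed by a number, or Rplp followed by 0, 1 or 2, with an optional letter and digit at the end. Pseudogenes with a -ps suffix were left out. Where several probe sets carried 1 symbol and named the same gene, the one with the highest 6-array mean stood for it, and probe sets with several symbols were set aside. This gave 66 members among 22180 genes. KP1 comes from a mouse model that lacks Rb, p53 and p130, so both groups share these knockouts. Control cells received an empty ires-GFP vector (3 arrays), and N1ICD cells received Notch1-ICD-ires-GFP, which expresses the released, active intracellular domain of the Notch1 receptor (3 arrays). Both were sorted for GFP 48 hours after transfection, and total RNA was read on Mouse Gene 2.0 ST arrays. The labels call the samples of a group biological replicates and do not say whether they came from separate cultures, so p-values measure the spread between these samples, all of 1 cell line.

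The ribosome has a small subunit, which reads the mRNA, and a large subunit, which joins the amino acids. Proteins named Rps generally sit in the small subunit and those named Rpl in the large one, and the acidic P proteins form a stalk that recruits translation factors. Most of these proteins are needed in equal numbers, and growing cells spend much of their transcription on them. Their mRNAs typically begin with a C followed by a run of pyrimidines at the cap, the TOP motif (terminal oligopyrimidine), through which mTOR controls how strongly they are translated. Tumours of the small cell type often carry MYC family amplifications, and MYC factors are known for driving ribosome production.

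The start sites of members are shown because a pyrimidine run there, which the symbol rule did not use, was found in some members and not in others. RefSeq sequences (GRCm38.p6) from 250 bases before to 50 bases after an annotated start were matched by symbol for 51 of the 66 members, in 60 windows. In 16 of the 60 windows (26.7%) an unbroken run of at least 8 C or T letters on the transcribed strand covered the annotated start, against 3.86% of all 32851 windows of the same length. The 30 bases around the start are printed 5′ to 3′, 15 on each side of the boundary, with that run in capitals. A run near the annotated start that does not cover it was not counted, as in Rpl4 and Rpl13. A window without a counted run therefore does not show that the TOP motif is absent. The first 7 are members with a counted run. The other 4 have none, were taken for their lower values in N1ICD and are described below. They do not stand for the 35 members without a run, whose median difference is given below. Lower members with a run exist too: Rplp2, printed here, at -0.44, and Rpl34, not printed, at -0.25 with a run of 20 bases.
Rpl7a (chr2:26910792-26910821, plus strand): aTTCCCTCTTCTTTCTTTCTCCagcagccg
Rpl35 (chr2:39005117-39005146, minus strand): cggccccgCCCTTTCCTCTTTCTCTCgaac
Rpl15 (chr14:18270972-18271001, minus strand): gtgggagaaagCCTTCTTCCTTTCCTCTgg
Rpl28 (chr7:4792950-4792979, plus strand): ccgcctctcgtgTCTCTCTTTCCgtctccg
Rps6 (chr4:86857353-86857382, minus strand): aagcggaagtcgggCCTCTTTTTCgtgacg
Rps27 (chr3:90213634-90213663, minus strand): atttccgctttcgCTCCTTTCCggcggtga
Rplp2 (chr7:141447636-141447665, plus strand): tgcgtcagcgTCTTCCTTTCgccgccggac
Rps15 (chr10:80292416-80292445, plus strand): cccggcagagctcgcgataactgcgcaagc
Rpl37a (chr1:72711245-72711274, plus strand): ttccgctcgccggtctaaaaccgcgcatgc
Rpl5 (chr5:107900513-107900542, plus strand): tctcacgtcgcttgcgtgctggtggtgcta
Rpl11 (chr4:136053379-136053408, minus strand): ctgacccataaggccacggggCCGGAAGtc
In the Rpl11 line the capitals mark CCGGAAG, the core letters bound by ETS family factors. Searched on both strands, CCGGAAG stood in 36.7% of member windows and 8.86% of all windows. TGGGAA, the core of the sites bound by RBPJ, the DNA-binding partner of active Notch, stood in 12 of the 60 member windows and 25.6% of all windows. CACGTG, the E-box bound by MYC factors among others, stood in 6 of the 60 and 7.15%, and CTTTCC, letters of a pyrimidine run, in 24 of the 60 and 26.6%. A match describes the letters in these windows only. The median log2 difference between N1ICD and control was 0.02 for the 16 members with a start run and -0.02 for the 35 without, and 0.01 and -0.01 for the 22 members with and the 29 without CCGGAAG. It was -0.03 for the 12 members with TGGGAA and 0.01 for the other 39.

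The level of the transfected gene differed as the labels state. Notch1 read 6.35, 6.20 and 5.96 in the control arrays and 8.07, 7.49 and 7.72 in the N1ICD arrays on the log2 scale (limma adjusted p = 0.000889). The groups did not overlap, and the mean difference was 1.59 ± 0.17 (SE). An exact permutation test, two-sided, gave p = 0.1, and 20 assignments of 3 against 3 arrays allow no smaller value. The line was checked against its cell type: 9 of 10 neuroendocrine markers were measured, with control means from 8.47 (Syp) to 11.8 (Chga), of which Chga, Ncam1 and Resp18 rose and Insm1 and Dll3 fell in N1ICD. With 1 array left out, Chga missed the threshold in 4 and Ncam1 in 5 of 6 fits (highest limma adjusted p = 0.0638 and 0.0955), and Ncam1 missed it with the replicate block too (0.0553). All 6 macrophage markers summed to between 7.90 and 8.06 (log2 of the summed signal) in control arrays and to between 7.90 and 7.96 in N1ICD arrays, and Lyz2 passed as higher but missed the threshold in all 6 fits with 1 array left out (highest limma adjusted p = 0.110) and with equal array medians (0.0551). The 6 fibroblast markers summed to 9.36 to 9.62 in control and 8.90 to 9.02 in N1ICD, and Pdgfra passed as lower but missed the threshold in 4 of those 6 fits (highest limma adjusted p = 0.0736). The 6 endothelial markers summed to 8.86 to 9.01 in control and 10.3 to 10.8 in N1ICD, where Kdr (3.04 ± 0.17) and Tek (1.06 ± 0.14) rose, while Pecam1, Cdh5, Vwf and Cldn5 had means between 4.91 and 6.08 in both groups. A reading above 0 does not show that a marker is expressed, since the lowest value of any probe set on these arrays was 0.64. The part of macrophages, fibroblasts or endothelial cells in the results below was not tested. In bulk RNA, fewer cells of a type and less RNA per cell cannot be told apart.

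No cytosolic ribosomal protein gene passed the test between N1ICD and control. The counts were 0 higher and 0 lower of 66 members at a limma adjusted p under 0.05, while 7.10% of all 22180 genes passed (848 higher and 726 lower). At an unadjusted p under 0.05 limma gave 4 members, all lower (Rps15, Rpl37a, Rpl11 and Rpl5), against 19.9% of all genes. The median log2 difference of the members was 0.01, beside -0.02 for all genes, and 35 members had a higher and 31 a lower mean in N1ICD. The member differences ran from -0.44 (Rplp2) to 0.40 (Rpl32l), and 42 of the 66 (63.6%) lay within 0.1 of 0, as did 38.8% of all genes. The 3 arrays of one group lay wholly above those of the other for 10 members, 4 higher and 6 lower in N1ICD, against 26.1% of all genes. The sign of the member median depended on the scaling and is not a direction: it was -0.02 after quantile normalization was applied again or array medians were made equal, and 0.02 after cyclic loess.

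**Figure D1:**
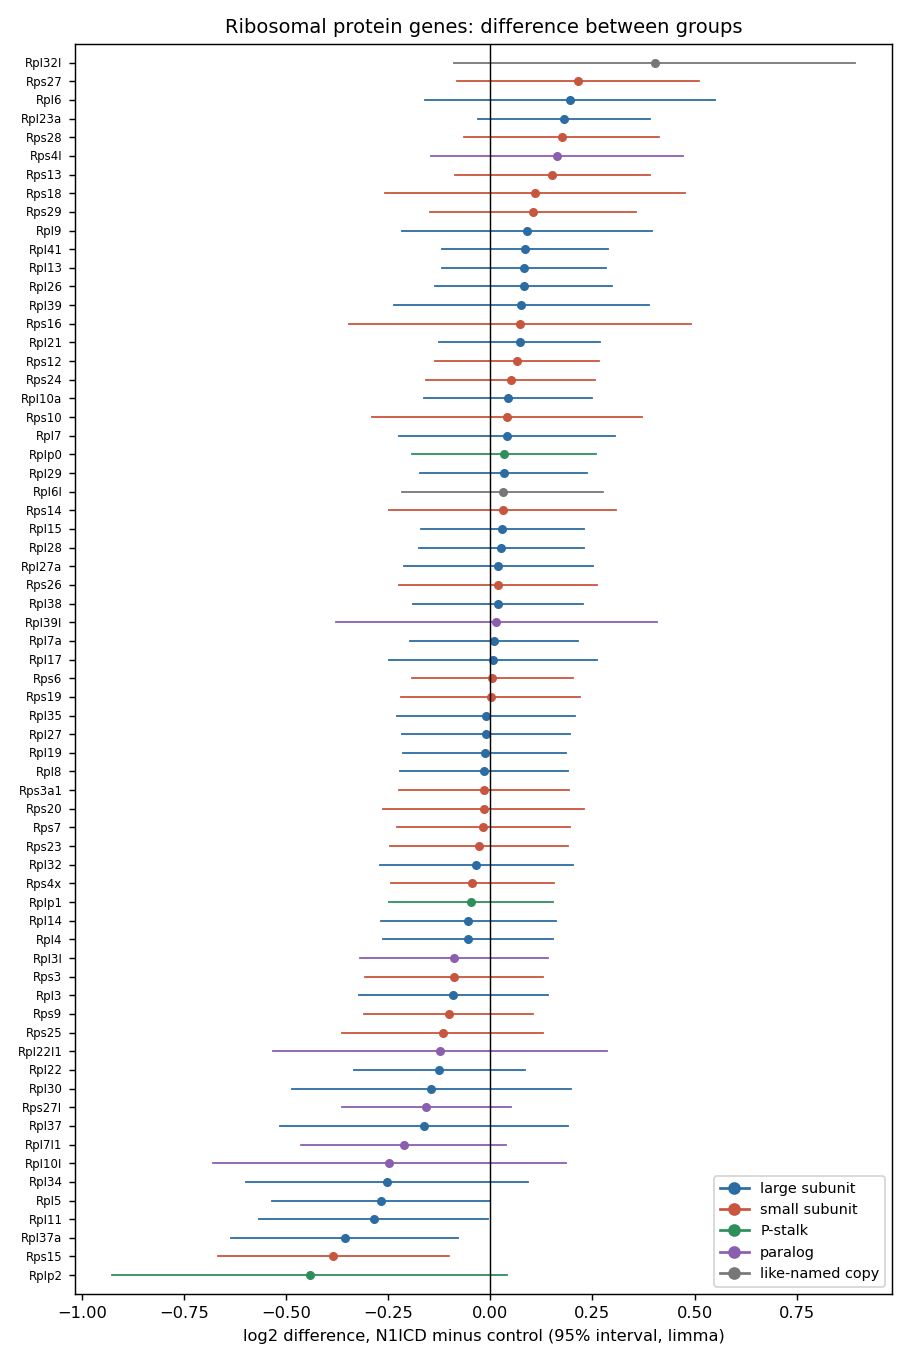
Log2 difference between N1ICD and control (horizontal axis) for each of the 66 ribosomal protein genes (vertical axis), with the 95% interval of the limma fit on 3 arrays per group as a line, coloured by role in the ribosome. The points run from -0.44 for Rplp2 to 0.40 for Rpl32l, and 42 of them lie within 0.1 of 0.

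A p that misses the threshold does not show equal levels, so the intervals were read too. The 95% interval of the difference lay wholly within 0.5 of 0 on the log2 scale for 54 of 66 members and wholly within 0.3 for 32. Precision followed the brightness of the probe set, which is no order of mRNA amounts between genes. Of the members, 35 had a mean above 9, and all 35 had an interval within 0.5 and 26 an interval within 0.3. Their median residual SD was 0.052, beside 0.096 for the 3204 genes above 9 and 0.149 for all genes. These sets were not matched for brightness: the median of the means was 11.59 for the 35 members and 9.78 for the 3204 genes. The lower SD is therefore not shown to be particular to the members. The differences of the 35 members lay between -0.10 (Rps9) and 0.18 (Rpl23a), with a median of 0.02 beside -0.06 for all genes above 9. Whether differences at the brightest probe sets come out too small was not tested. The 31 members at 9 or below had a median residual SD of 0.153 and differences from -0.44 to 0.40, and 19 of them had an interval within 0.5. The split at 9 was placed in a gap between members at 8.49 (Rps25) and 9.12 (Rps18) after their values were seen. All 4 members with an unadjusted p under 0.05 lay on the dimmer side.

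**Figure D2:**
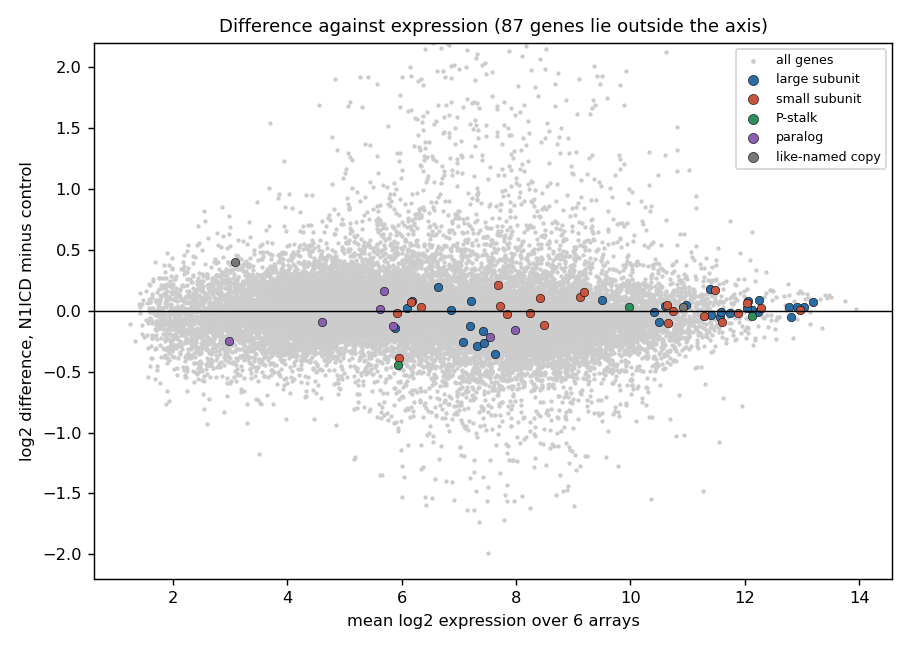
Log2 difference between N1ICD and control (vertical axis) against the mean log2 expression over the 6 arrays (horizontal axis) for all 22180 genes in grey and the 66 members in colour by role. Members above 9 lie between -0.10 and 0.18, while those at 9 or below range from -0.44 to 0.40, and 87 genes beyond 2.2 in either direction are outside the axis.

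Large subunit proteins, 32 members without the stalk, the paralogs and like-named copies, had a median difference of 0.01, with 17 means higher and 15 lower in N1ICD. Rpl28, a large subunit surface protein, read 13.06, 13.00 and 13.00 in control and 13.09, 13.05 and 13.01 in N1ICD. The groups overlapped, and the difference was 0.03 ± 0.09 (95% interval -0.18 to 0.23). Rpl21 was the brightest member, with 13.18, 13.16 and 13.14 in control and 13.25, 13.22 and 13.23 in N1ICD. All its N1ICD arrays lay above all control arrays, by a small amount (0.07 ± 0.09, limma adjusted p = 0.7235). Rpl13 (0.08) and Rpl41 (0.09), the latter the shortest of the ribosomal proteins, were separated in the same way, and were picked out after their values were seen. Rpl23a, which lies at the exit of the peptide tunnel, read 11.25, 11.37 and 11.27 in control and 11.48, 11.54 and 11.42 in N1ICD. Its groups did not overlap, and it had the largest difference among members above 9 (0.18 ± 0.09, limma adjusted p = 0.334). Rpl3, which reaches close to the catalytic centre, had a difference of -0.09 ± 0.10, and Rpl7 of 0.04 ± 0.12.

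The lower values of the large subunit came from dimmer probe sets. Rpl37a read 7.86, 7.89 and 7.69 in control and 7.24, 7.57 and 7.55 in N1ICD. Every N1ICD array was below every control array, and the difference of -0.36 ± 0.12 did not pass after adjustment (unadjusted p = 0.0178, limma adjusted p = 0.138). Rpl11 and Rpl5 form, with a small ribosomal RNA, a particle that binds the p53 regulator MDM2 when ribosome assembly is disturbed. Rpl11 read 7.47, 7.57 and 7.35 in control and 7.05, 7.09 and 7.39 in N1ICD. The third N1ICD array lay inside the control range, and the difference was -0.29 ± 0.12 (limma adjusted p = 0.243). Rpl5 read 7.77, 7.51 and 7.43 in control and 7.28, 7.39 and 7.25 in N1ICD. Its groups did not overlap, with a difference of -0.27 ± 0.12 (limma adjusted p = 0.251). Rpl34 followed at -0.25 ± 0.15 (limma adjusted p = 0.414) with overlapping groups. At the other end, Rpl6 had 0.20 ± 0.15 (limma adjusted p = 0.558), a value that was 0.37 without N1ICD replicate 1.

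Small subunit proteins, 22 members, had a median difference of 0.01, with 13 means higher and 9 lower. Rps6, the protein that S6 kinases phosphorylate downstream of mTOR, read 12.97, 12.94 and 12.97 in control and 12.95, 12.97 and 12.97 in N1ICD. These arrays overlapped fully, and the difference was 0.00 ± 0.09 (95% interval -0.19 to 0.20). Rps19, the gene most often mutated in the inherited anemia named Diamond-Blackfan, had a difference of 0.00 ± 0.10. Rps3, which lines the mRNA entry, had -0.09 ± 0.09, Rps4x, encoded on the X chromosome, -0.04 ± 0.09 and Rps14 0.03 ± 0.12. Rps15 read 6.28, 5.95 and 6.21 in control and 5.80, 5.61 and 5.87 in N1ICD. Each N1ICD array was below each control array, and the difference of -0.38 ± 0.12 had the smallest p of all members (unadjusted p = 0.0140, limma adjusted p = 0.120). Rps27 lay at the other end of the subunit, with 7.82, 7.41 and 7.47 in control and 7.69, 7.88 and 7.77 in N1ICD. Its groups overlapped (0.21 ± 0.13, limma adjusted p = 0.422), and Rps28 and Rps13 followed at 0.17 ± 0.10 and 0.15 ± 0.10.

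**Figure D3:**
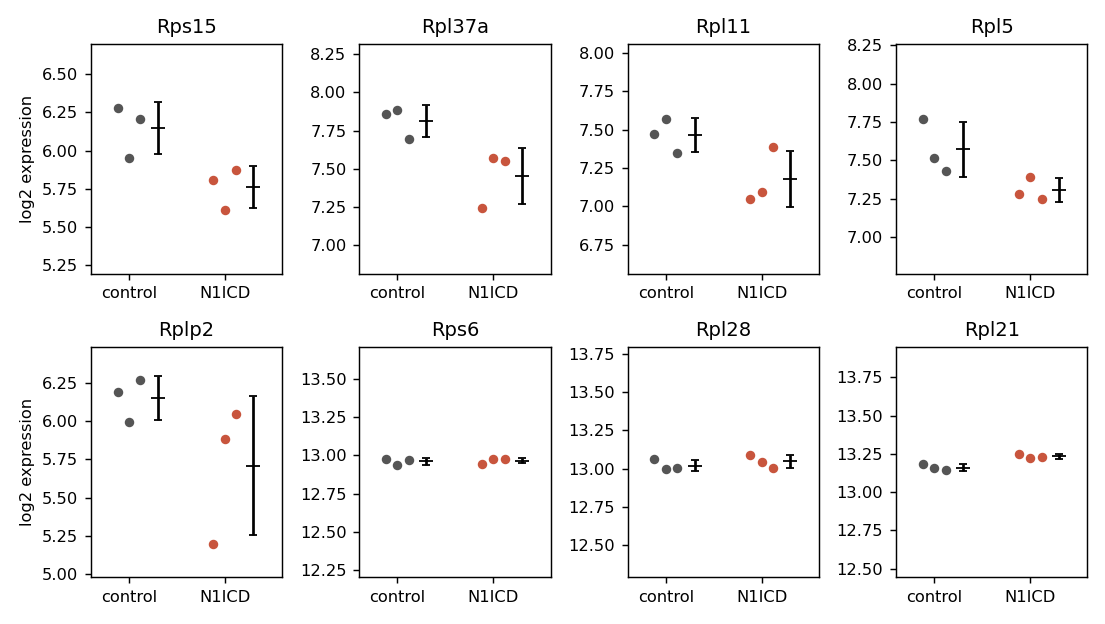
Log2 expression (vertical axis, 1.5 units in every panel) of 8 members in each control array (grey) and each N1ICD array (red), with the group mean and SD over 3 arrays in black. In Rps15, Rpl37a, Rpl5 and Rpl21 the groups do not overlap, and the points of Rps6, Rpl28 and Rpl21 lie close together.

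The P proteins gave 1 higher and 2 lower means. Rplp0, the base of the stalk and a common reference gene in PCR, read 9.88, 9.96 and 10.04 in control and 9.98, 10.09 and 9.91 in N1ICD. Its groups overlapped, with a difference of 0.03 ± 0.10 (95% interval -0.19 to 0.26). Rplp1 differed by -0.05 ± 0.09. Rplp2, which pairs with Rplp1 in the stalk, read 6.19, 5.99 and 6.27 in control and 5.20, 5.88 and 6.05 in N1ICD. The first N1ICD array lay far below the rest, and the third inside the control range. The difference of -0.44 ± 0.21 (limma adjusted p = 0.297) was -0.19 without that array, N1ICD replicate 1, and -0.61 without N1ICD replicate 3.

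Paralogs of ribosomal proteins, encoded by separate genes and often restricted to a tissue, gave 0 calls among 7 (median difference -0.12, 2 means higher and 5 lower). Among all genes 7.10% passed in either direction. Rps27l, known as a p53 target, read 8.08, 8.0 and 8.12 in control and 7.94, 7.91 and 7.88 in N1ICD. The groups did not overlap, and the difference was -0.16 ± 0.09 (limma adjusted p = 0.396), beside 0.21 ± 0.13 for Rps27. Rpl22l1, which can replace Rpl22 and is regulated by it, read 6.01, 5.57 and 6.13 in control and 6.03, 5.79 and 5.53 in N1ICD. These groups overlapped (-0.12 ± 0.18, limma adjusted p = 0.778), and Rpl22 had -0.12 ± 0.09 with separated groups. Rpl7l1, a nucleolar relative of Rpl7, had -0.21 ± 0.11 (limma adjusted p = 0.339). The testis paralogs Rpl10l and Rpl39l had -0.25 ± 0.19 and 0.01 ± 0.17, against 0.08 ± 0.14 for Rpl39, and the muscle paralog Rpl3l had -0.09 ± 0.10. The mean over 6 arrays was 2.99 for Rpl10l and 4.62 for Rpl3l. Without control replicate 1 the difference of Rpl10l was -0.03. Rps4l had 0.16 ± 0.13, and RefSeq lists it as a transcribed pseudogene. Rpl6l and Rpl32l, kept apart from the paralogs as like-named copies after their values were seen, had 0.03 ± 0.11 and 0.40 ± 0.21. Rpl32l had a mean of 3.08 and RefSeq lists Rpl6l as a pseudogene.

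Disease and stress roles cut across the subunits. Of 19 Diamond-Blackfan anemia proteins 14 were measured, with 0 calls and a median of 0.02. Of 8 proteins that bind MDM2 or belong to the particle of Rpl5 and Rpl11, 7 were measured, with 0 calls and a median of -0.09, and 5 of them had lower means. Among all genes 7.10% passed in either direction. These lists share members with the subunits, so they add no independent values.

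Other probe sets of the same members were read next, since ribosomal protein genes have many near-identical processed copies in the genome and a probe set may take up signal from them. Of the 66 members 24 had more than 1 probe set, 64 in all. Of these, 10 repeated the values of another probe set of the gene on all arrays, 6 of them for Rps12, so 57 were distinct. None of the 33 distinct probe sets beyond the brightest passed the test over all single-symbol probe sets (limma), and their differences ran from -0.48 to 0.33 with a median of 0.03. In 10 genes (Rpl3, Rpl9, Rpl19, Rpl21, Rpl29, Rplp1, Rps9, Rps18, Rps24 and Rps28) at least 1 had the opposite sign to the brightest. Rps24, a small subunit protein whose mRNA is alternatively spliced, showed the widest disagreement. Its brightest probe set had 0.05 ± 0.09, its second 0.18 ± 0.11, and its dimmest -0.48 ± 0.13 (limma adjusted p = 0.0829). That probe set read 8.01, 7.55 and 7.75 in control and 7.18, 7.29 and 7.41 in N1ICD, so its groups were separated. Rpl41, with 5 probe sets, had 5 values above 0, from 0.06 to 0.23.

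**Figure D4:**
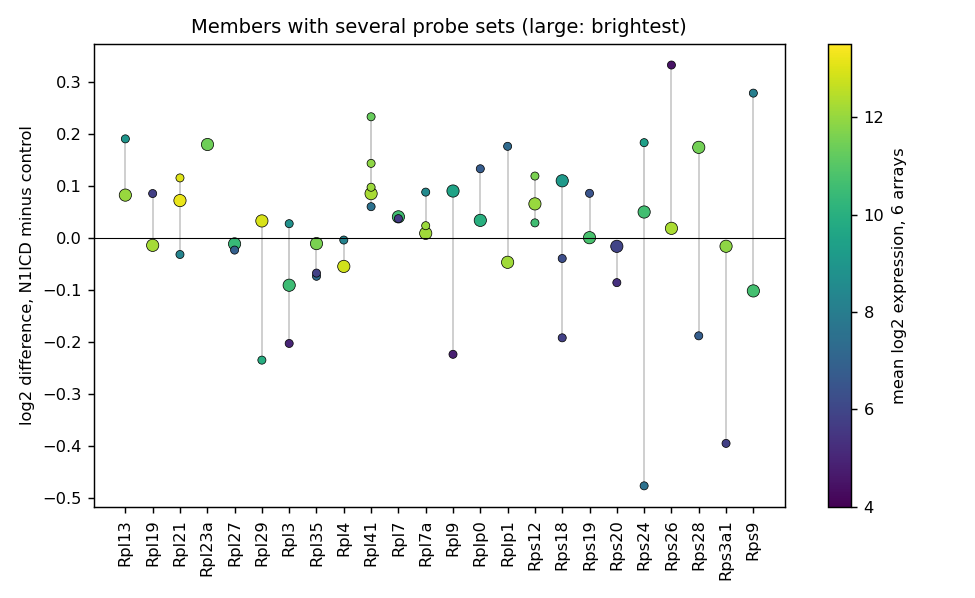
Log2 difference between N1ICD and control (vertical axis) for every distinct probe set of the 24 members with several (horizontal axis). The large point is the brightest probe set of a gene and the colour its mean log2 expression over 6 arrays. Values spread from -0.48 (Rps24) to 0.33 (Rps26), at probe sets with means of 7.53 and 4.47.

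A further 12 genes that fit the symbol rule had a probe set only together with other symbols and are not members: Rpl10, Rpl12, Rpl13a, Rpl23, Rpl24, Rpl31, Rpl35a, Rpl36, Rpl36a, Rps2, Rps15a and Rps21. At the brightest such probe set of each, the differences ran from -0.14 (Rps2) to 0.17 (Rpl10) with a median of 0.00. Dimmer probe sets of the same genes reached lower values, -0.37 ± 0.10 for Rpl12 (unadjusted p = 0.00844) and -0.31 ± 0.11 for Rpl31 (unadjusted p = 0.0276). Over all 57 shared probe sets that name a ribosomal protein gene the differences ran from -0.37 to 0.34. None of the 57 passed the test over all 41345 probe sets (limma, smallest adjusted p = 0.162). Some of these shared probe sets belong to members with low values above and were brighter than the member's own, though their second symbol leaves the source of the signal uncertain. Rpl37a, at -0.36 on its own probe set, had -0.03 ± 0.09 on a shared one with a mean of 11.0. Rpl5 had 0.11 ± 0.17 on a shared one, Rpl34 -0.01 ± 0.09 and Rplp2 -0.22 ± 0.22. The lower values of Rpl37a, Rpl5 and Rpl34 were therefore not repeated there. No shared probe set was listed under Rps15 or Rpl11, so their lower values could not be read in this way. Rps27, at 0.21 on its own probe set, had 0.15 ± 0.10 on a shared one with a mean of 11.56. These genes were picked out after their values were seen.

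The arrays differed little over the members as a whole. The median deviation of the 66 members from their own 6-array mean was 0.01, -0.01 and 0.01 in control replicates 1, 2 and 3 and -0.01, -0.01 and 0.01 in N1ICD replicates 1, 2 and 3. N1ICD replicate 1 was the lowest of the 6 arrays for 23 members and the highest for 17, more often than any other array in both directions. Without it 3 members had a higher and 1 a lower value at an unadjusted p under 0.05 (limma). The share of all genes at that p was not counted for this fit. After adjustment 0 members passed, beside 1182 of all 22180 genes.

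Introns of ribosomal protein genes carry snoRNAs, which guide the modification of ribosomal RNA. By RefSeq position, 42 snoRNA genes lay inside 21 members, and 13 of them in 11 hosts had a probe set with their symbol alone. None passed the test (limma, 0 of 13), beside 7.10% of all genes. Their differences ran from -0.26 (Snora7a in Rpl32) to 0.13 (Snord58b in Rpl17) with a median of -0.06. Their median residual SD of 0.306 exceeded that of all genes, 0.149.

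The rest of the translation machinery was read from lists, beside 7.10% of all genes that passed in either direction. Of 6 ribosomal protein genes outside the symbol rule 2 were measured, Rpsa at 0.02 ± 0.09 and Fau at 0.06 ± 0.09 (limma, 0 calls). Of 27 translation factors and other genes with TOP mRNAs 22 were measured, with 0 calls and a median of -0.03. The elongation factor Eef1a1 had 0.09 ± 0.09 and Snhg1, a snoRNA host gene, had the largest difference (-0.22 ± 0.09, limma adjusted p = 0.229). Of 15 ribosomal protein pseudogenes, 0 passed (median 0.07), and Rpl17-ps10 had the largest difference (-0.54 ± 0.18, limma adjusted p = 0.132). Mitochondrial ribosomal proteins, which build the separate ribosome of mitochondria, also gave 0 calls among 71, but 61 of the 71 means were lower in N1ICD, against 54.5% of all genes. Their median was -0.15, and between -0.18 and -0.09 under every alternative. Genes of like brightness were lower too. The list had a median 6-array mean of 8.17, and the 2218 genes with means from 7.83 to 8.54 had a median difference of -0.07. Of the 3204 genes above 9, 2013 had a lower mean in N1ICD. Mrpl20 had the largest difference (-0.41 ± 0.16, limma adjusted p = 0.216). Of 71, 18 were lower and 1 higher at an unadjusted p under 0.05 (limma), where 11.2% of all genes were lower and 8.67% higher.

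Factors that make and process ribosomal RNA, a list written after earlier results were known, were lower in N1ICD as a list. Of 36 measured, 13 fell and 0 rose (limma adjusted p under 0.05), beside 3.27% of all genes lower and 3.82% higher, and all 36 had a lower mean in N1ICD, with a median of -0.36. Utp20, a component of the early precursor of the small subunit, fell by 0.61 ± 0.10 on the log2 scale. Polr1a, the largest subunit of RNA polymerase I, which transcribes ribosomal RNA, fell by 0.59 ± 0.10. Bop1, a processing factor of the large subunit, fell by 0.58 ± 0.10, and its partner Wdr12 fell by 0.58 ± 0.14, missing the threshold in 5 of the 6 fits with 1 array left out (highest limma adjusted p = 0.156). The median over the list was 9.41, 9.36 and 9.45 in control arrays and 8.90, 9.03 and 9.15 in N1ICD arrays, so the groups did not overlap. The same median over the 35 members above 9 was 11.56, 11.65 and 11.66 against 11.48, 11.60 and 11.60, which overlapped. Over all 66 members the median level was 9.28, 9.34 and 9.27 in control and 9.40, 9.51 and 9.53 in N1ICD. These medians did not overlap and were higher in N1ICD, while the median of the members' own differences was 0.01. The median level rests on the middle-ranked members, here Rps18, Rps13 and Rpl9, with differences of 0.11, 0.15 and 0.09. It therefore does not describe the members as a set. With 1 control array left out (replicate 1, 2 or 3) the count of ribosomal RNA factors that fell became 7, 3 or 5. With 1 N1ICD array left out, in the same order, it became 6, 4 or 13. The list median stayed between -0.42 and -0.30 under every alternative. The 6-array means of the list had a median of 9.25. The 2218 genes with means from 8.54 to 9.42 had a median difference of -0.08, and 11.4% of them passed in either direction. The difference between the lists itself was not tested.

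**Figure D5:**
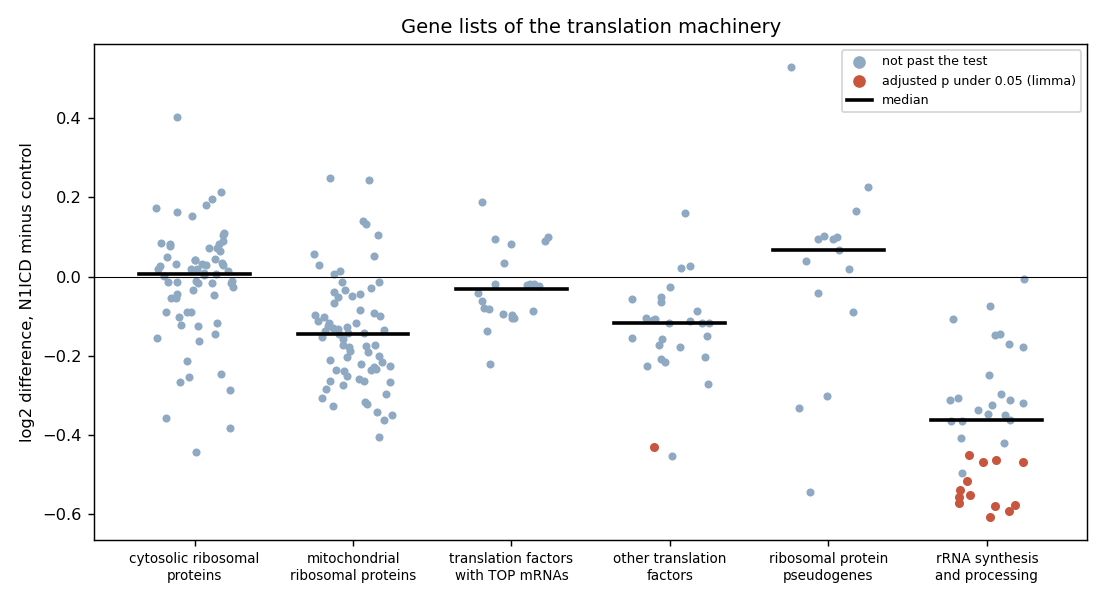
Log2 difference between N1ICD and control (vertical axis) for each gene of 6 groups (horizontal axis), with the median as a bar and genes at a limma adjusted p under 0.05 in red. The median is 0.01 for the 66 cytosolic ribosomal protein genes, -0.15 for 71 mitochondrial ones and -0.36 for 36 factors of ribosomal RNA synthesis and processing, of which 13 are red.

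Genes that control the translation of TOP mRNAs were read as a last list: of 17, 15 were measured, 1 rose and 2 fell, beside 3.82% of all genes higher and 3.27% lower, and the median was -0.16. Ddit4, an inhibitor of mTOR complex signaling, rose by 1.00 ± 0.21, and it missed the threshold in 4 of the 6 fits with 1 array left out (highest limma adjusted p = 0.0832). Eif4ebp1, which holds back cap-dependent initiation until mTOR phosphorylates it, fell by 0.56 ± 0.11, and Tsc1, an upstream inhibitor of mTOR, fell by 0.52 ± 0.12. Both latter genes missed the threshold in 5 of those 6 fits (highest limma adjusted p = 0.0832 and 0.117). Of 27 other initiation, elongation and release factors, Eef2k, the kinase that inactivates elongation factor Eef2, was the 1 that passed (-0.43 ± 0.11), beside 7.10% of all genes in either direction. Eef2k missed the threshold in all 6 of those fits (highest limma adjusted p = 0.142). Among 5 further genes with S6 kinase symbols (Rps6ka3, Rps6ka5, Rps6ka6, Rps6kc1 and Rps6kl1), 0 passed (limma). Of these, Rps6ka6 had the largest difference (-0.31 ± 0.21, limma adjusted p = 0.470).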

How the data were processed

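The log2 expression values are those the authors deposited. RMA made them, per the submitters' processing notes, with no version named. That method corrects background, quantile-normalizes the arrays and summarises each probe set on a base 2 scale. A difference in total RNA between the groups is removed by the normalization, and changes at dim probe sets come out too small. A genome build for the probe sets was not stated. Of 41345 probe sets 23521 carry 1 gene symbol and 1814 several. No filter was applied to dim genes. Values ran from 0.64 to 14.09, and the number of arrays limits precision.

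N1ICD was compared with control by limma 3.58.1 in R 4.3.3 (lmFit, eBayes, two-sided, Benjamini-Hochberg over all genes, threshold 0.05). A ± after a difference is the SE of that fit. The fit was tested on simulated data. The members and lists were chosen with earlier results of these data known. Rpl6l and Rpl32l were grouped, the split at 9 placed and the list of ribosomal RNA factors written after values were seen. Named were members of fixed roles whatever their result, the 6 largest differences in each direction, the 4 brightest and 4 dimmest, members whose probe sets differ in sign, and up to 4 changed genes of each other list or its largest difference. Same-numbered samples of the groups had correlated deviations of 0.23, 0.01 and 0.20, and differently numbered ones had -0.23 to 0.06. The main fit did not pair the samples, and pairing by number was fitted as the replicate block alternative. The alternatives are named in the closing section. Figures were drawn with matplotlib 3.10.9.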

Additional observations from a re-analysis of the deposited data

How the results depend on the processing

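The count of ribosomal protein genes past the limma threshold was 0 higher and 0 lower under all 15 alternatives. These were quantile normalization again, equal array medians, cyclic loess, genes with a mean of at least 5 (63 members kept) or 6 (56 members), the mean over probe sets, array quality weights, eBayes with an intensity trend made robust, the replicate block (same-numbered arrays of the groups), and leaving out each of the 6 arrays. The smallest adjusted p of any member lay between 0.0545 and 0.186, and it was 0.0545 for Rpl37a among genes with a mean of at least 6. At an unadjusted p under 0.05, limma gave 0 to 3 members higher and 1 to 5 lower. In the main fit 8.67% of all genes were higher and 11.2% lower at that p, and these shares were not counted for the alternatives. The member median was -0.0157 after quantile normalization again, -0.0169 with equal array medians and 0.0177 after cyclic loess, and it ran from -0.0159 (without N1ICD replicate 1) to 0.0026 with 1 array left out. The median of all genes ran from -0.05 to -0.00. Among all genes 823 to 1230 changed with 1 array left out (896, 887 and 823 without control replicates 2 and 3 and N1ICD replicate 2), and 1391 to 2276 under the other alternatives. The 13 ribosomal RNA factors that fell became 23 and 25 among genes with a mean of at least 5 and 6 and 23 with the intensity trend, and 3 to 13 with 1 array left out. Eef2k also missed the threshold under the 3 other scalings and the block (adjusted p up to 0.0716), and Wdr12 under equal medians and cyclic loess. With the replicate block 1518 of all genes and 0 members changed. Notch1 kept its call throughout, with differences of 1.43 to 1.72 and adjusted p up to 0.00674. Of 544 values of 37 named members under the alternatives, 11 moved by more than the SE, among them Rps24 (-0.08), Rpl29 (-0.10) and Rps9 (0.09) with the mean over probe sets, and Rps18 (-0.07) and Rpl9 (0.23) without N1ICD replicate 1. Signal limits the dimmer members: at this number of arrays, 12 of 66 intervals reached beyond 0.5.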
